A study of Macaca mulatta with 8 samples.

Results

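The genes described here are the potassium channel genes of the macaque retina, taken as every gene whose symbol in the deposited feature list begins with KCN. The list held 90 such symbols among 26533 features, and 89 of them are reported. The name covers the pore-forming subunits of voltage-gated channels (KCNA to KCND, KCNH and KCNQ), their silent partners that form no channel alone (KCNG, KCNS and KCNV), calcium-activated channels (KCNM, KCNN), sodium-activated channels (KCNT), inward rectifiers (KCNJ), leak channels with paired pore domains (KCNK), and accessory proteins (KCNE, KCNAB, KCNIP). The choice of members rested on the symbol alone and used no measured value.

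Potassium channels let potassium ions leave or enter a cell down their gradient, and so set the resting potential and bring a depolarised cell back towards it. In photoreceptors a steady outward potassium current in the inner segment balances the inward dark current of the outer segment, and KCNV2, whose loss causes cone dystrophy with supernormal rod response in humans, joins Kv2 subunits in the channel that carries it. In inner retinal neurons fast voltage-gated channels shape graded signals and spikes, and in Müller glia potassium channels carry away the potassium released by neurons.

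Retinal cells came from 2 wild-type male rhesus macaques of 5 and 6 years, both given subretinal adeno-associated virus (AAV) vectors in both eyes after vitrectomy, with triamcinolone beneath the Tenon capsule. The 5-year-old animal, NHP1, received AAV2-CAG-hRPE65, in which the CAG promoter drives human RPE65 in any cell type, and gave 1 library of uninjected retina from each eye. The 6-year-old animal, NHP2, received AAV8-GRK1-hRPGR, a codon-optimised human RPGR, and AAV8-GRK1-mScarlet, a red fluorescent reporter, in separate blebs of each eye. GRK1 is a photoreceptor promoter. Each eye of NHP2 gave 1 library from the hRPGR bleb, 1 from the mScarlet bleb and 1 from an uninjected area. In both animals the left eye was further given repeated intravitreal adalimumab, an antibody to TNF. All 6 NHP2 libraries are areas of a single animal. The p-values of the area comparisons rest on the spread between its left and right eye within an area, which also holds the adalimumab difference. They do not measure the spread between animals or between places of untreated retina. The vector, its dose, its grade and the retinal location of its bleb cannot be told apart, nor can the eye and adalimumab.

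The 8 libraries held 90634306 to 146519011 unique molecular identifiers (UMIs, each standing for 1 captured RNA molecule), and 83192 cells with at least 1500 UMIs remained after doublets were removed. Pairs of libraries shared 135 to 255 cell barcodes, or 1.39% to 2.16% of the smaller library. Clusters named from marker genes held 29442 rods, 1927 cones, 5602 bipolar cells, 521 horizontal cells, 919 amacrine cells and 2802 Müller cells, with the range of their own summed markers over libraries running from 30743 to 46347 CPM (UMIs scaled to a common class total) in rods and from 12124 to 17521 CPM in cones. Every marker of these 6 classes that the files hold reached 50 UMIs in its own class. A further 24127 rods and 552 cones lay in clusters with little mitochondrial RNA, which were kept apart as low-mito rods and cones. The low-mito name did not require a marker among the 10 leading genes. Clusters 19 and 38, with 4961 and 3582 of these rods, had no marker of rods or of another class there. Cluster 9, with 3674 of these rods, had no rod marker and 1 marker of another class, VWF, among its 10 leading genes, and it held 54.6% of the low-mito rods of the hRPGR right library. Low-mito rods are therefore not described gene by gene between areas, though they stay in the counts of tested pairs. Another 14823 cells (17.8%) lay in clusters that stayed unnamed and entered no level. The amacrine cells came from 2 clusters in which GAD1 was a leading gene, while 3 unnamed clusters whose highest marker list was the amacrine one, led by ACTC1, PIEZO2 and ZNF804A, held 388, 329 and 585 cells. Similarly, 2 unnamed clusters led by DAPL1 whose highest list was that of Müller cells held 1926 and 1674, and 3 with the bipolar list highest, led by GRIK1, PCP2 and NETO1, held 584, 221 and 78. The unnamed clusters with the rod list highest were 7, of 219 to 2610 cells, and those with the cone or myeloid list highest held 145, 87 and 1195 cells. Levels in each class, and the split of bipolar cells by GRIK1, therefore describe the named clusters. In each animal a library labelled uninjected held vector transcripts. The NHP2 uninjected right library held 8362 UMIs of the hRPGR transgene, and the NHP1 uninjected left library held 28201 UMIs of hRPE65. The NHP2 mScarlet right library held 1140 UMIs of the hRPGR transgene beside 12607 of mScarlet. The counts of separate members, of members above or below other cells or free RNA, and of called members are also given without the uninjected ones, and the calls without the mScarlet right one.

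Of the 89 members, 65 reached 50 UMIs in at least 1 of the 6 retinal classes. Amacrine cells held 51 such members, bipolar cells 47, rods 43, Müller cells 39, cones 29 and horizontal cells 25. These classes differed in depth, and 3 UMIs stood for 0.0153 CPM in rods and for 0.410 CPM in horizontal cells. 16 members reached 50 UMIs in all 6 classes and 13 in a single class. The other 24 stayed under 50 UMIs in each class, and KCNA10 had no UMI at all. Among these 24 were KCNJ8, which pairs with the sulfonylurea receptors, KCNMB2, a partner of the large-conductance calcium-activated channel, and KCNJ1, the rectifier of the kidney. Levels are given as CPM of the class total in each library. The reads begin at the 5′ end and are not scaled by gene length, so levels are compared for 1 gene between classes and not between genes.

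For 29 of the 65 members the lowest of the 8 libraries in 1 class was above the highest library of every other class among the 6 retinal ones, against 23.4% of 16119 genes with 50 UMIs in a class. Without the 2 libraries labelled uninjected that held transgene, 33 were separate in this sense. A member separate over all libraries stays so when libraries are left out, so the count can only grow, and the 4 additional ones were KCNA2 and KCND2 in amacrine cells and KCNH6 and KCNIP2 in bipolar cells. Amacrine cells held 10 of the 29, bipolar cells 7, Müller cells 5, horizontal cells 4, rods 2 and cones 1. These are descriptions without a test, because the classes were defined from the same cells.

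**Figure D1:**
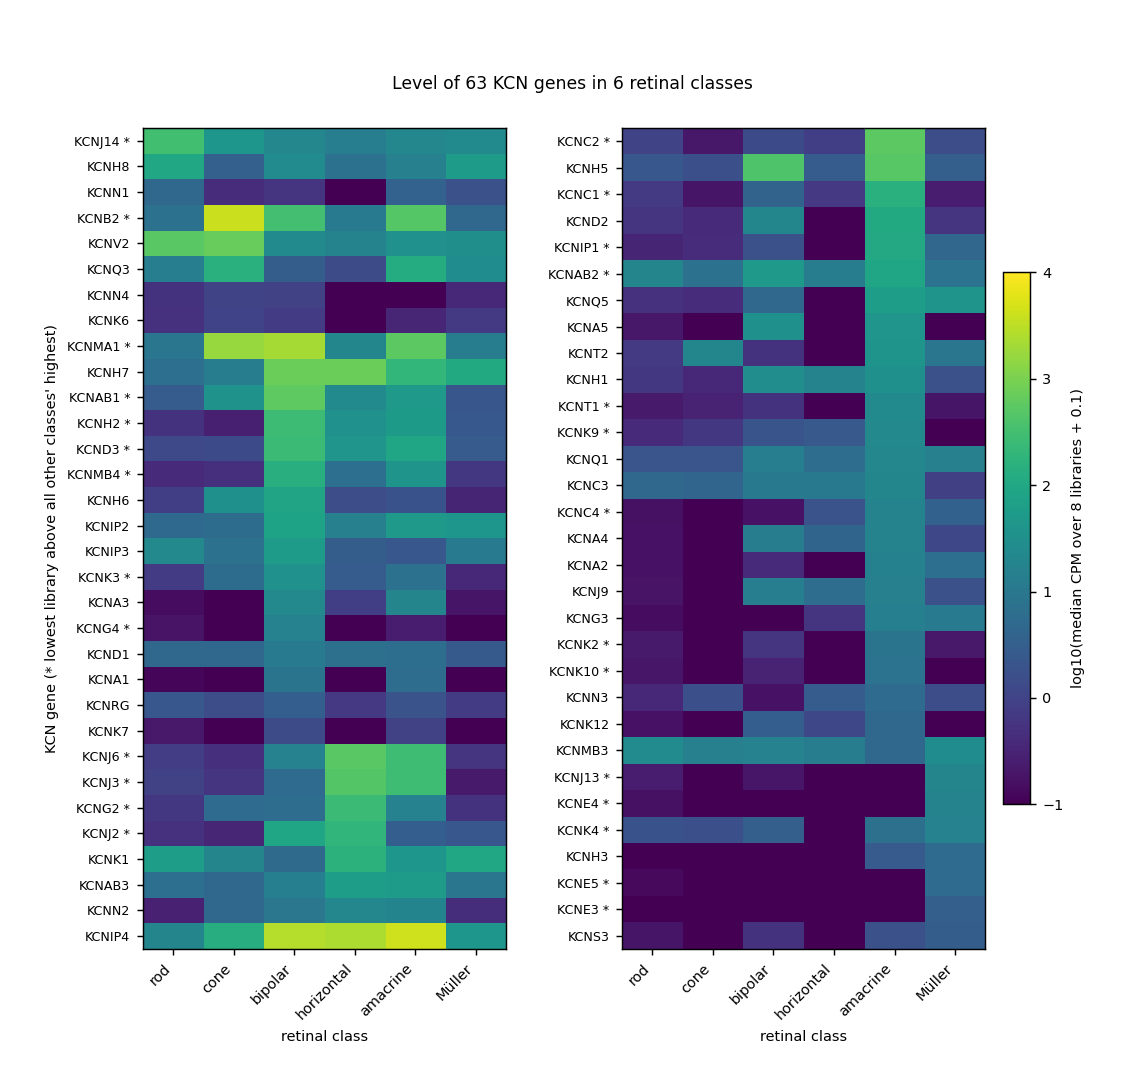
The colour gives the log10 of the median CPM over 8 libraries plus 0.1 for 63 members (vertical axis, stars for separate ones) in 6 retinal classes (horizontal axis). KCNV2 is bright in both photoreceptor columns, KCNJ14 is brightest in rods, KCNB2 stands at 3899 CPM in cones and 7.25 CPM in rods, and a block of members is counted mainly in amacrine cells.

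Free RNA here means the summed RNA of barcodes with 100 to 1000 UMIs, 58350 to 67555 of them per library. Whether these barcodes also held damaged or small cells was not tested. The summed level of the 89 members was 1660 CPM there (median of 8 libraries), against 1817 CPM in rods, 7274 CPM in cones, 8536 CPM in bipolar cells, 8800 CPM in amacrine cells, 5160 CPM in horizontal cells and 786.5 CPM in Müller cells. Among members with 50 UMIs in the class, 41 of 51 in amacrine cells and 32 of 47 in bipolar cells were above the free RNA of the same library in all 8 libraries. In rods 9 of 43 members were above it and 21 were below it in all 8. A level below the free RNA need not itself be free RNA, and the part of free RNA in the levels was not tested. Without the 2 libraries that held transgene these 4 counts were 42, 34, 10 and 23.

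Photoreceptors carried a Kv2 subunit, its silent partner and an inward rectifier. KCNB2, a delayed rectifier subunit of the Kv2 family, was the single member separate in cones, with 2735, 3899 and 4146 CPM as lowest, median and highest library. Its next class was the amacrine cells with a median of 472 CPM, 8.26 times lower, and its median in rods was 7.25 CPM, under the free RNA median of 88.72 CPM. KCNV2, the silent partner of Kv2 channels, ran from 502.2 to 590.5 CPM in rods and from 477.0 to 777.1 CPM in cones, so the 2 photoreceptor classes overlapped.

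KCNJ14, an inward rectifier also called Kir2.4, was separate in rods, with 290.9, 305.1 and 342.0 CPM as lowest, median and highest library. Cones followed at a median of 42.18 CPM, 7.23 times lower and under the 86.90 CPM of the free RNA. The bases before the start of KCNV2 are shown because they hold a short motif of NRL, the transcription factor that specifies rods. In Mmul_10, by RefSeq's annotation, KCNV2 lies on chromosome 15 from 81147932 to 81161155 on the minus strand. The window is the 250 bases upstream of the annotated start, chr15:81161156-81161405, written on the strand of the gene from 5′ to 3′. Capitals mark TGCTGA or, for a match on the other strand, TCAGCA.
KCNV2: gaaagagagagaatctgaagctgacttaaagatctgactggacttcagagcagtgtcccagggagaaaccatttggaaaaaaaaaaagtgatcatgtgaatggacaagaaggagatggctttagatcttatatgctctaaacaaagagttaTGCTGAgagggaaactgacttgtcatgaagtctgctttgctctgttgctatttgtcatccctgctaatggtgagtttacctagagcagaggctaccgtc
The KCNV2 window held 1 match, and the window of KCNJ14 held none. The motif was in 12.6% of 20787 promoters of the same length and in 12 of 87 members with an annotated start, or 13.8%. TAATCC, a motif of the photoreceptor factor CRX read on both strands, was in 9.29% of all windows and in 6 of the 87 members (6.90%), and not in the printed window. Both shares are descriptions of letters and do not show binding.

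Further members were counted in rods above the free RNA. KCNH8, a slowly gating channel of the Elk family, had a median of 95.58 CPM in rods (60.23 to 191.7 CPM) against 29.82 CPM in free RNA. KCNK1, a leak channel, had 62.00 CPM (49.14 to 72.82 CPM). KCNIP3, a calcium-binding protein that regulates Kv4 channels and is also known as DREAM, had 22.35 CPM (18.97 to 48.12 CPM), and KCNMB3, a regulatory subunit of the large-conductance calcium-activated channel, 25.73 CPM (18.49 to 27.87 CPM). All 4 were above the free RNA of their library in 8 of 8 libraries, while the pore subunit KCNMA1 stood at 8.97 CPM in rods and below it in all 8.

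Several calcium-linked and slow channels were counted in cones. KCNMA1, the pore of the large-conductance calcium-activated channel, had 1050, 1659 and 1863 CPM as lowest, median and highest library in cones. KCNQ3, a subunit of the M-type channel that opens slowly near rest, had a median of 149.6 CPM in cones (63.01 to 177.4 CPM) and 13.73 CPM in rods (1.419 to 21.09 CPM), and the libraries did not overlap. In rods it was above the free RNA in 2 of 8 libraries. KCNH6, a channel of the ERG family, had 32.17 CPM in cones (10.64 to 77.09 CPM) and was higher in bipolar cells, at 83.94 CPM. KCNT2, a sodium-activated channel, had a median of 19.62 CPM in cones and was above the free RNA in all 8 libraries. It ran from 2.949 to 40.80 CPM, with the 2 NHP1 libraries lowest, and overlapped rods, which ran from 0.08600 to 3.859 CPM. Cones of the 2 animals lay in different clusters, with 82.8% and 94.2% of the NHP1 cones in cluster 11, which held at most 4.28% of those of an NHP2 library. KCNN2, a small-conductance calcium-activated channel, had 4.888 CPM in cones and was also above free RNA in all 8.

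**Figure D2:**
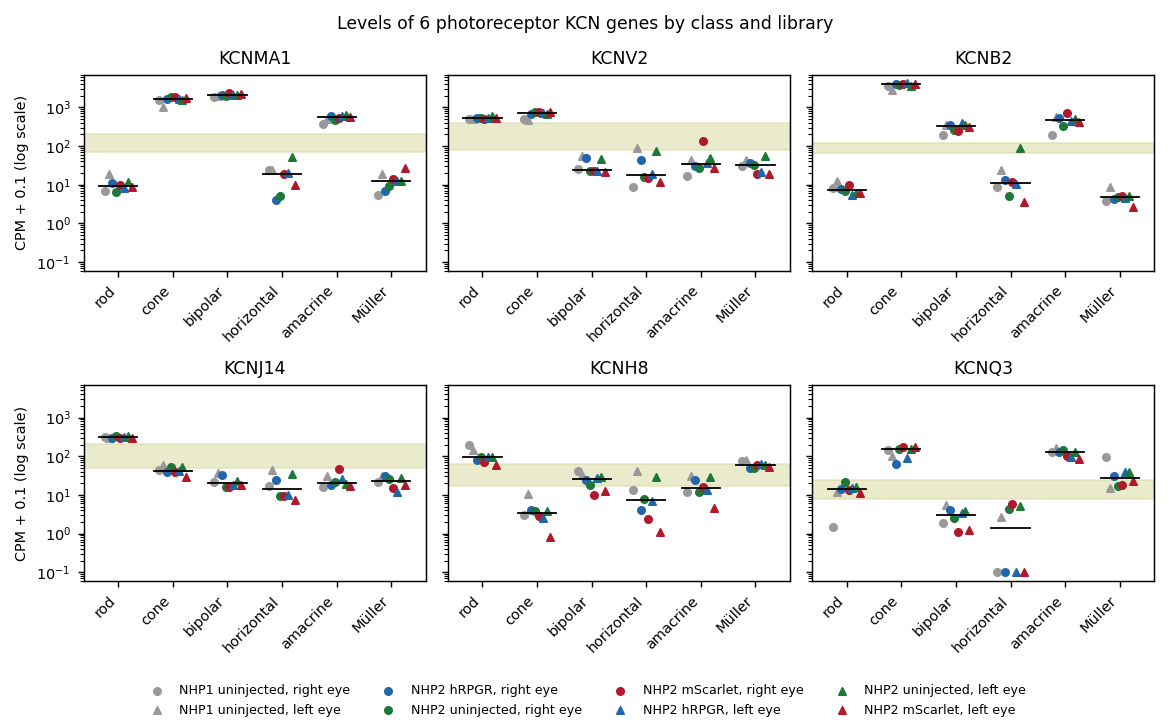
Each point is 1 library, placed by its CPM plus 0.1 on a log scale (vertical axis) in 6 retinal classes (horizontal axis), with a line at the median and a band for the range of the free RNA. The rod and cone points of KCNB2, KCNJ14 and KCNQ3 do not overlap, those of KCNV2 do, and the rod points of KCNV2, KCNJ14 and KCNH8 lie above the free RNA of their own library.

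The low-mito clusters were compared with the other rods and cones of the same library. Among 42 members counted in both kinds of rod, 15 were higher and 2 were lower in the low-mito rods in 8 of 8 libraries, against 43.1% and 12.6% of all genes counted in both. Of the 15, 5 were above the free RNA in rods in all 8 libraries and 4, KCNAB1, KCNIP4, KCNB2 and KCNMA1, were below it in all 8. Without the 2 libraries that held transgene, the counts were 17 and 2. Without cluster 9 they were 9 and 0, against 31.0% and 6.68% of all genes. KCNH8 had a median of 164.5 CPM in low-mito rods against 95.58 CPM in the others, a ratio of 1.72, and KCNQ3, which was above the free RNA of the other rods in 2 of 8 libraries, 43.72 against 13.73 CPM, a ratio of 3.18. Without cluster 9 these ratios were 1.68 and 2.44, with KCNH8 higher in 8 of 8 libraries and KCNQ3 in 6. The 2 lower members were KCNV2, with 397.4 CPM and a ratio of 0.758, and KCNJ14, with 257.0 CPM and a ratio of 0.842, and without cluster 9 the ratios were 0.817 and 0.968, with KCNV2 higher in 1 and KCNJ14 in 3 of 8 libraries. Among 21 members counted in both kinds of cone, 7 were higher and 2 were lower in the low-mito cones in 8 of 8 libraries, against 28.0% and 20.5% of all genes, and these counts were 7 and 2 without the same 2 libraries. KCNV2 was lower at 310.6 CPM (ratio 0.442). The other was KCNJ14, whose level in cones lay below the free RNA in all 8 libraries. KCNB2 stood at 8975 CPM in low-mito cones, 2.30 times its level in the other cones, and KCNMA1 at 4020 CPM, 2.42 times. The low-mito clusters were chosen by their mitochondrial share, and the part of damaged cells or nuclei in these differences was not tested.

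Bipolar cells, which relay photoreceptor signals to the inner retina, held 7 separate members of several families. KCNAB1, an accessory beta subunit of Kv1 channels, had 446.5, 572.0 and 672.8 CPM as lowest, median and highest library, 11.4 times the amacrine median. KCNH2, the ERG channel of cardiac repolarisation, had 230.0, 265.4 and 288.8 CPM, 5.01 times the amacrine median. KCNK3, an acid-sensitive leak channel, had a median of 34.29 CPM and KCNG4, a silent subunit that pairs with Kv2, one of 16.08 CPM, with the next class under the free RNA. KCNMB4, which slows the large-conductance calcium-activated channel, had 143.9 CPM (110.5 to 161.3 CPM), and KCND3, an A-type channel, 250.4 CPM (209.8 to 279.3 CPM). With low-mito cones kept apart, the pore KCNMA1 was itself highest in bipolar cells, at 1902, 2091 and 2377 CPM, 1.26 times the cone median. The highest cone library stood at 1863 CPM, close below the lowest bipolar one. Low-mito cones had a higher median than bipolar cells, 4020 CPM, so this rank holds only without them.

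Bipolar clusters split into 2 kinds by their leading gene, and the members differed between them. In 5 clusters (3818 cells) TRPM1, the cation channel of ON bipolar cells, was above GRIK1, a glutamate receptor of OFF bipolar cells, and in 4 clusters (1784 cells) GRIK1 was above TRPM1. Of 47 members, 8 were separate and higher in the TRPM1-led cells and 10 in the GRIK1-led cells, against 8.12% and 8.86% of all genes with 50 UMIs in bipolar cells. Without the 2 libraries that held transgene the counts were 9 and 11. On the TRPM1-led side, KCNH5 had medians of 596.0 against 23.44 CPM, KCNIP2 104.9 against 8.844 CPM, KCNH1 38.41 against 0.8971 CPM and KCNA3 30.23 against 0.8551 CPM. KCNH1 and KCNH5 are the EAG-type channels, and KCNA3 is a Kv1 channel best known from T cells. KCNA1, another Kv1 subunit, was also on that side, with 11.44 CPM and a median of 0 in the GRIK1-led cells.

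On the GRIK1-led side, KCND2, the pore of a rapidly inactivating Kv4 channel, had a median of 75.10 CPM there against 1.452 CPM in TRPM1-led cells. KCNIP4, a Kv4 partner, had 6460 against 1224 CPM, and KCNIP1, a further Kv4 partner, was 8.54 times higher. KCNIP2, given above, is a Kv4 partner too, and the Kv4 pore KCND3 had 357.5 against 215.7 CPM with overlapping libraries. KCNB2 had 685.6 against 175.6 CPM and KCNK3 92.70 against 14.60 CPM. KCNH2 was on the TRPM1-led side at 1.54 times, and KCNAB1 on the GRIK1-led side at 1.74 times. The clusters come from the same cells, though without the KCN genes, so these differences carry no test.

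**Figure D3:**
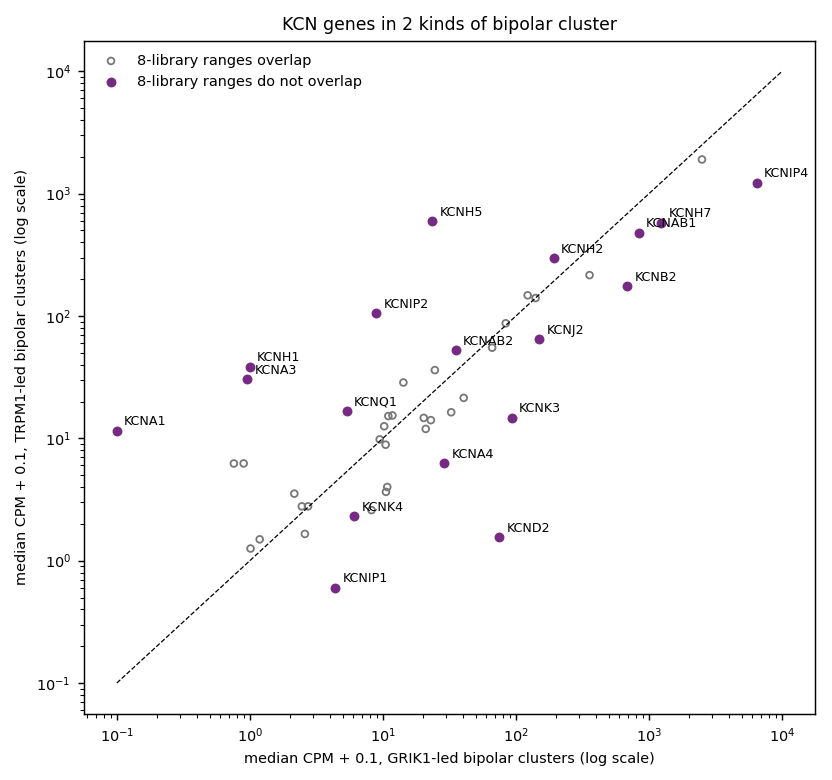
The horizontal axis gives the median CPM of 8 libraries in GRIK1-led bipolar clusters and the vertical axis that in TRPM1-led clusters, both on log scales, with 1 point per member and the diagonal marking equal levels. KCNH5, KCNH1 and KCNA3 lie above the diagonal and KCND2, KCNIP4 and KCNB2 below it.

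Horizontal cells, which feed back onto photoreceptors, held 4 separate members, and 3 of these were inward rectifiers. KCNG2, a silent Kv2 partner, had 97.69, 257.6 and 359.8 CPM as lowest, median and highest library, 15.9 times the amacrine median. KCNJ2, the classical strong inward rectifier, had 168.1, 199.4 and 314.5 CPM, 2.23 times the bipolar median. KCNJ6 and KCNJ3, subunits of G-protein-gated rectifiers, had medians of 523.4 CPM (436.3 to 689.5 CPM) and 466.8 CPM (410.3 to 542.1 CPM), 1.89 and 1.67 times those of amacrine cells. KCNK1, the leak channel, had 160.4 CPM in horizontal cells, with libraries from 132.8 to 187.9 CPM that overlapped those of Müller cells (35.90 to 173.9 CPM), so it was not separate. Horizontal cells were few, at 35 to 118 per library.

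Amacrine cells, the inhibitory interneurons of the inner retina, held the longest list. KCNC2 and KCNC1, the Kv3 channels that allow fast repeated spiking, had medians of 561.3 CPM (253.8 to 836.7 CPM) and 150.1 CPM (131.2 to 167.7 CPM). Their next classes among the 6, at 1.411 CPM in Müller cells and 3.816 CPM in bipolar cells, lay under the free RNA medians of 14.83 and 7.661 CPM. KCNC2 and KCNC1 had 7121 and 1894 UMIs in amacrine cells. Over all cells they had 21827 and 7277, most of them outside the 6 retinal classes, and KCNC2 was higher in the ganglion cells given below. KCNC4 of the same family was separate too, at 5.03 times the next class. KCNT1, a sodium-activated channel, had 24.74 CPM (19.11 to 34.51 CPM), and bipolar cells followed at 0.4517 CPM, under the free RNA. KCNQ3, of the M-type channel, overlapped with cones, at 127.2 CPM (85.41 to 164.2 CPM). The leak channels KCNK10, KCNK2 and KCNK9 were also separate, at medians of 7.823, 8.363 and 22.0 CPM. KCNK10 had 100 UMIs in amacrine cells and 1167 over all cells, most of them outside the 6 retinal classes. KCNIP1 had 102.4 CPM (36.48 to 154.1 CPM), 23.3 times the next class, and KCNAB2 was 1.81 times the bipolar median.

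Several members were shared between inner retinal neurons. KCNA1 had 8.198 CPM in bipolar and 6.106 CPM in amacrine cells, and KCNJ9, a G-protein-gated rectifier, 13.89 and 14.72 CPM, and in each case the libraries of the 2 classes overlapped. KCNA2, a Kv1 channel of axons, had 15.61 CPM in amacrine cells and 6.733 CPM in Müller cells. KCNN2 ran from 13.61 to 26.84 CPM in amacrine and from 13.03 to 47.55 CPM in horizontal cells, and KCNN3, of the same family, had 5.609 CPM in amacrine cells. KCNIP4 had medians of 2742 CPM in bipolar, 2408 CPM in horizontal and 4257 CPM in amacrine cells. In the 433 ganglion cells, the output neurons of the retina, KCNC2 stood at 877.0 to 1347 CPM and KCND2 at 264.3 to 589.6 CPM, both above every amacrine library.

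Müller glia held 5 separate members, and 3 of these were small accessory subunits. KCNE4 had 8.029, 17.37 and 50.76 CPM as lowest, median and highest library, KCNE5 3.435, 5.453 and 7.030 CPM, and KCNE3 1.527, 3.113 and 4.942 CPM. These KCNE proteins modify voltage-gated pores. KCNE3 had 89 UMIs in Müller cells against 4 in rods, 3 in cones and none in bipolar, horizontal and amacrine cells. Over all cells KCNE3 had 362 UMIs, most of them outside these retinal classes. KCNK4, a mechanically gated leak channel, had 16.48 CPM (12.39 to 18.41 CPM), 2.41 times the amacrine median. KCNJ13, an inward rectifier best known from the retinal pigment epithelium (RPE), had 18.73 CPM (2.362 to 28.24 CPM) in Müller cells and 158.0 CPM (42.87 to 287.3 CPM) in the 199 RPE cells. Summed RPE markers in Müller cells ran from 309.0 to 652.0 CPM, and the part of RPE RNA in the KCNJ13 level was not tested.

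Other members in Müller cells were shared with neurons. KCNH7, an ERG-type channel, had a median of 107.2 CPM and was at 19.75 CPM in its lowest library, KCNK1 ran from 35.90 to 173.9 CPM, and KCNQ5, of the M-type family, from 12.02 to 57.6 CPM. KCNH8 had 59.14 CPM (49.42 to 79.82 CPM) and KCNIP2 41.37 CPM (31.11 to 44.19 CPM). KCNN4 and KCNK6, both known from blood cells and epithelia, reached 50 UMIs only in rods, at 0.4407 and 0.4049 CPM. Their free RNA levels were 0.2125 and 0.4326 CPM, and they were above it in 7 and 4 of 8 libraries. Among the immune cells, KCNK13 had 185.4 CPM (96.31 to 266.7 CPM) and KCNQ3 440.3 CPM (164.3 to 538.9 CPM) in myeloid cells, and KCNA3, the Kv1 channel of lymphocytes, 35.67 CPM (0 to 66.41 CPM) in T and NK cells.

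Areas of NHP2 were then compared to ask whether the members changed with the vector. In 9 classes with at least 20 cells in each of the 6 libraries, 273 pairs of a member and a class were tested among 100037 pairs of any gene and a class, with edgeR's quasi-likelihood test and Benjamini-Hochberg adjustment over all genes of a class. For the mScarlet bleb against the uninjected area, 3 of the 273 pairs were called at an adjusted p under 0.05, against 0.792% of all pairs. All 3 were in cones, where 413 of 11014 genes (3.75%) were called and 3 of 23 members. For the hRPGR bleb against the uninjected area 1 pair was called, against 0.0310% of all pairs, and between the mScarlet and hRPGR blebs 2 pairs, against 0.0670%. Without the uninjected right library, which held hRPGR transcripts, these 3 counts were 19, 3 and 7, and DESeq2 gave 13, 2 and 6, of which 3, 0 and 2 were in low-mito rods. Of the edgeR calls none was in the 35 pairs of low-mito rods. The first count was also 9 without either hRPGR library, 1 without the mScarlet left and 2 without the mScarlet right library. The second was 2 without the hRPGR left library and 0 without the hRPGR right, the uninjected left or either mScarlet library. The third was 8 without the uninjected left library, 3 without the hRPGR right, 1 without the hRPGR left or the mScarlet left and 0 without the mScarlet right library. The median log2 difference of the 273 pairs was -0.05, -0.02 and -0.03 in the 3 comparisons, and that of all pairs was -0.00. In bulk sums of a class, fewer cells of a subtype and less RNA per cell cannot be told apart.

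KCNH6 was the member with the lowest p in cones. Its level, in CPM corrected by edgeR's TMM scaling as all levels by area here, was 42.72 and 62.05 CPM in the uninjected areas of the right and left eye, 22.90 and 15.71 CPM in the hRPGR blebs and 15.52 and 9.865 CPM in the mScarlet blebs. Both blebs lay under both uninjected areas in each eye, with no overlap, and the free RNA of KCNH6 ran from 2.066 to 7.362 CPM. The mScarlet bleb was lower by a log2 difference of -1.97 (SE 0.252, adjusted p = 0.00446 by edgeR), and the hRPGR bleb by -1.43 (SE 0.249), which did not pass with edgeR (adjusted p = 0.0869) but did with DESeq2 (0.00912) and with edgeR when the uninjected right library was left out (0.0412). KCNH6 lies on chromosome 16 from 59977853 to 60001870 in Mmul_10, on the plus strand. In bipolar cells, where its level was higher, the same gene differed by -0.06 (SE 0.129, adjusted p = 0.887). Among the alternatives run, the call in cones was lost when the mScarlet left library was left out (-1.75).

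KCNT2 rose and KCNJ14 fell in cones of the mScarlet bleb. KCNT2 stood at 20.08 and 19.58 CPM in the uninjected areas of the right and left eye, 19.88 and 21.25 CPM in the hRPGR blebs and 29.67 and 37.82 CPM in the mScarlet blebs, so only the mScarlet blebs stood apart. Its log2 difference from the uninjected area was 0.74 (SE 0.159, adjusted p = 0.0371), and the call was lost with the eye as a block (adjusted p = 0.0708) and with DESeq2 (adjusted p = 0.164). KCNJ14, the rod member, was counted in cones at 53.13 and 56.15 CPM in the uninjected areas, 39.46 and 42.82 CPM in the hRPGR blebs and 38.12 and 26.64 CPM in the mScarlet blebs. Its difference was -0.72 (SE 0.160, adjusted p = 0.0405), lost with the block (adjusted p = 0.0849) and with DESeq2 (adjusted p = 0.0766). KCNT2 was also lost without either uninjected or either mScarlet library, and KCNJ14 without either uninjected library or the mScarlet left library.

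Rod transcripts in cones and free RNA were read beside the cone level of KCNJ14. The 8 rod markers summed to 764.1 and 1206 CPM in cones of the uninjected areas, 952.6 and 555.0 CPM in the hRPGR blebs and 723.1 and 257.2 CPM in the mScarlet blebs of the right and left eye. The free RNA level of KCNJ14 was 97.63 and 207.5 CPM in the uninjected areas, 204.8 and 76.16 CPM in the hRPGR blebs and 49.96 and 62.77 CPM in the mScarlet blebs. In each eye both quantities were lowest in the mScarlet bleb, and their part in the fall was not tested. The cone level of KCNJ14 lay below the free RNA in each of the 6 libraries, and how much of it came from cones was not tested.

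KCNQ3 was lower in cones of the hRPGR bleb. It stood at 153.7 and 162.8 CPM in the uninjected areas of the right and left eye, 161.8 and 164.4 CPM in the mScarlet blebs and 63.87 and 90.25 CPM in the hRPGR blebs. The hRPGR libraries were below the other 4, which lay close together. The hRPGR bleb was lower than the uninjected area by a log2 difference of -1.04 (SE 0.145, adjusted p = 0.0353, and 0.0804 with the eye as a block), and the mScarlet bleb was higher than the hRPGR bleb by 1.08 (SE 0.145, adjusted p = 0.0120). Free RNA of KCNQ3 ran from 14.43 to 23.72 CPM in these libraries. The gene lies on chromosome 8 from 132405629 to 132768683 on the minus strand. The fall against the uninjected area was not called when either uninjected library, either mScarlet library or the hRPGR right library was left out, and the difference between the blebs was not called without either mScarlet library or with low-mito clusters counted as cones (0.80, adjusted p = 0.0957).

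**Figure D4:**
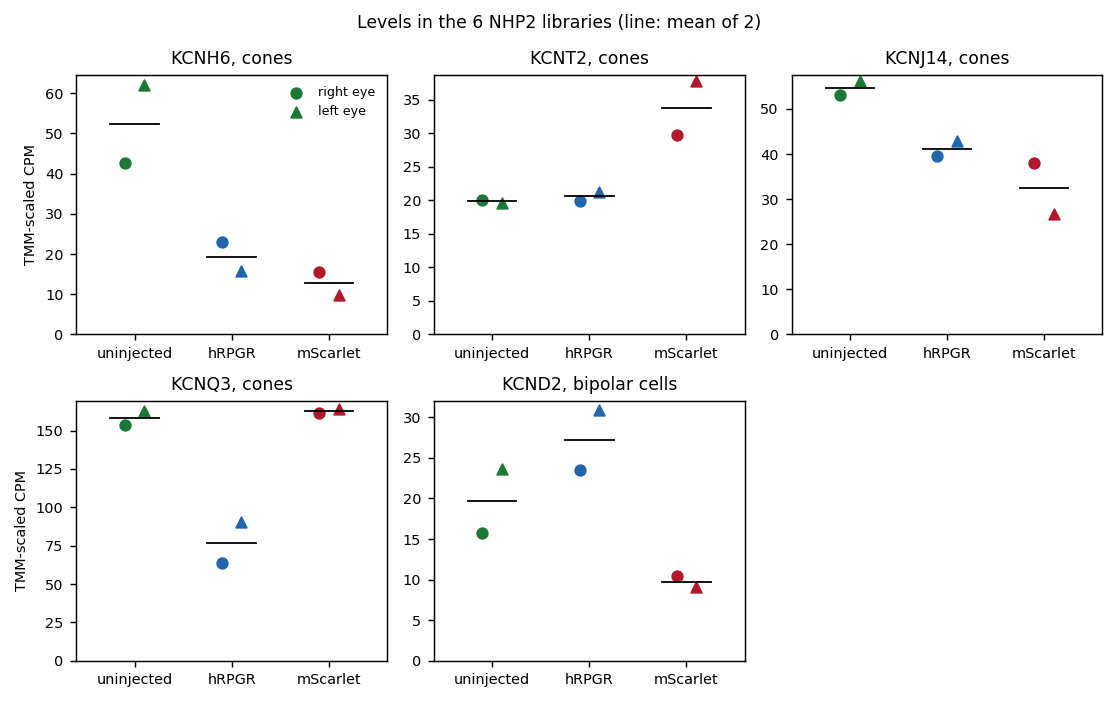
Each panel gives the TMM-scaled CPM (vertical axis, from 0) of 1 member in the 6 NHP2 libraries by area (horizontal axis), with circles for right eyes, triangles for left eyes and a line at the mean of the 2. Panels show the 5 pairs of gene and class called by edgeR. KCNH6 is lowest in the mScarlet blebs, KCNQ3 in the hRPGR blebs, and KCND2 in bipolar cells is lower in the mScarlet than in the hRPGR blebs.

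KCNV2 and KCNB2, subunits of the photoreceptor channel, did not pass the test. In rods KCNV2 had 575.3 and 574.3 CPM in the uninjected areas, 521.1 and 544.7 CPM in the hRPGR blebs and 499.7 and 506.5 CPM in the mScarlet blebs, a log2 difference of -0.19 for mScarlet (SE 0.0978, adjusted p = 0.346). KCNJ14 in rods differed by -0.26 (SE 0.101, adjusted p = 0.228). In cones KCNB2 had 3930 and 3794 CPM in the uninjected areas, 4012 and 4269 CPM in the hRPGR blebs and 3951 and 3829 CPM in the mScarlet blebs, a difference of 0.01 for mScarlet (SE 0.0907). KCNV2 and KCNMA1 in cones differed by -0.07 (SE 0.0925) and -0.05 (SE 0.104).

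In rods the members with the lowest p for the mScarlet bleb were KCNH7, KCNH8 and KCNIP3, none of them called by edgeR. KCNH7 had 3.601 and 3.895 CPM in the uninjected areas of the right and left eye, 32.77 and 5.091 CPM in the hRPGR blebs and 66.20 and 45.84 CPM in the mScarlet blebs. Its difference was 3.90 (SE 0.785, adjusted p = 0.0713), and DESeq2 called it (adjusted p = 0.00270). Its free RNA stood at 20.20 and 31.72 CPM in the uninjected areas, 60.35 and 40.80 CPM in the hRPGR blebs and 44.27 and 93.65 CPM in the mScarlet blebs and was above the rod level in each library but the mScarlet right one, so the part of free RNA in the rod values was not tested. KCNH8 differed by -0.61 (adjusted p = 0.0910), which DESeq2 called (0.00408), and KCNIP3 by -0.50 (adjusted p = 0.111, and 0.0658 with DESeq2). Rods of the areas fell in different clusters. Cluster 48 held 42.4% and 68.2% of the rods of the uninjected areas, 0.605% and 36.6% of the hRPGR blebs and none of the mScarlet blebs, and cluster 8 held 65.8% and 76.4% of the low-mito rods of the mScarlet blebs against 0.667% and 0.658% of those of the uninjected areas. Among named cones other than low-mito ones, a single cluster, 10, held 95.7% to 100% in each of the 6 libraries. Cones outside this class were spread unevenly. Low-mito cones numbered from 15 in the mScarlet left library to 111 in the uninjected left library. Of the unnamed clusters with the cone list highest, cluster 60 had all its 87 cells in the mScarlet right library. Cluster 13 held 5.89% of the unnamed cells of the hRPGR right library and at most 0.357% of those of another library. Whether this bears on the cone differences was not tested.

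In bipolar cells KCND2 separated the 2 blebs. It had 15.70 and 23.66 CPM in the uninjected areas of the right and left eye, 23.53 and 30.93 CPM in the hRPGR blebs and 10.39 and 9.088 CPM in the mScarlet blebs. The mScarlet bleb was lower than the hRPGR bleb by a log2 difference of -1.51 (SE 0.230, adjusted p = 0.0341, and 0.0329 with the eye as a block) and did not pass against the uninjected area (-1.02, adjusted p = 0.102). Since KCND2 belongs to the GRIK1-led cells, it was also read within them. There it stood at 51.16 and 87.03 CPM in the uninjected areas, 113.5 and 96.35 CPM in the hRPGR blebs and 34.16 and 28.76 CPM in the mScarlet blebs, the same order, and the TRPM1-led share of bipolar cells ran from 65.2% to 78.7%. The free RNA of KCND2 stood at 2.257 and 5.121 CPM in the uninjected areas, 3.901 and 12.79 CPM in the hRPGR blebs and 3.494 and 9.848 CPM in the mScarlet blebs. It was higher in the hRPGR than in the mScarlet bleb of each eye, and its part in the difference was not tested. KCND2 lies on chromosome 3 from 146681248 to 147164948 on the plus strand. The call was lost without the mScarlet right (adjusted p = 0.172), the mScarlet left (0.435) or the hRPGR left library (0.0867).

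KCNH8 in bipolar cells was lowest in the mScarlet blebs too. It had 17.95 and 28.14 CPM in the uninjected areas, 24.43 and 27.79 CPM in the hRPGR blebs and 10.18 and 12.07 CPM in the mScarlet blebs. The difference of the mScarlet bleb from the uninjected area was -1.04 (SE 0.225), which did not pass (adjusted p = 0.0838) but did with the eye as a block (adjusted p = 0.0389). Its free RNA was 19.17 and 31.43 CPM in the uninjected areas, 28.21 and 34.25 CPM in the hRPGR blebs and 17.10 and 16.97 CPM in the mScarlet blebs. It was above the bipolar level in each of the 6 libraries and also lowest in the mScarlet blebs. Its part in the difference was not tested. KCNG4, the bipolar silent subunit, differed by 0.62 (adjusted p = 0.187), and the bipolar members KCNH2 and KCNAB1 by -0.04 and 0.10.

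**Figure D5:**
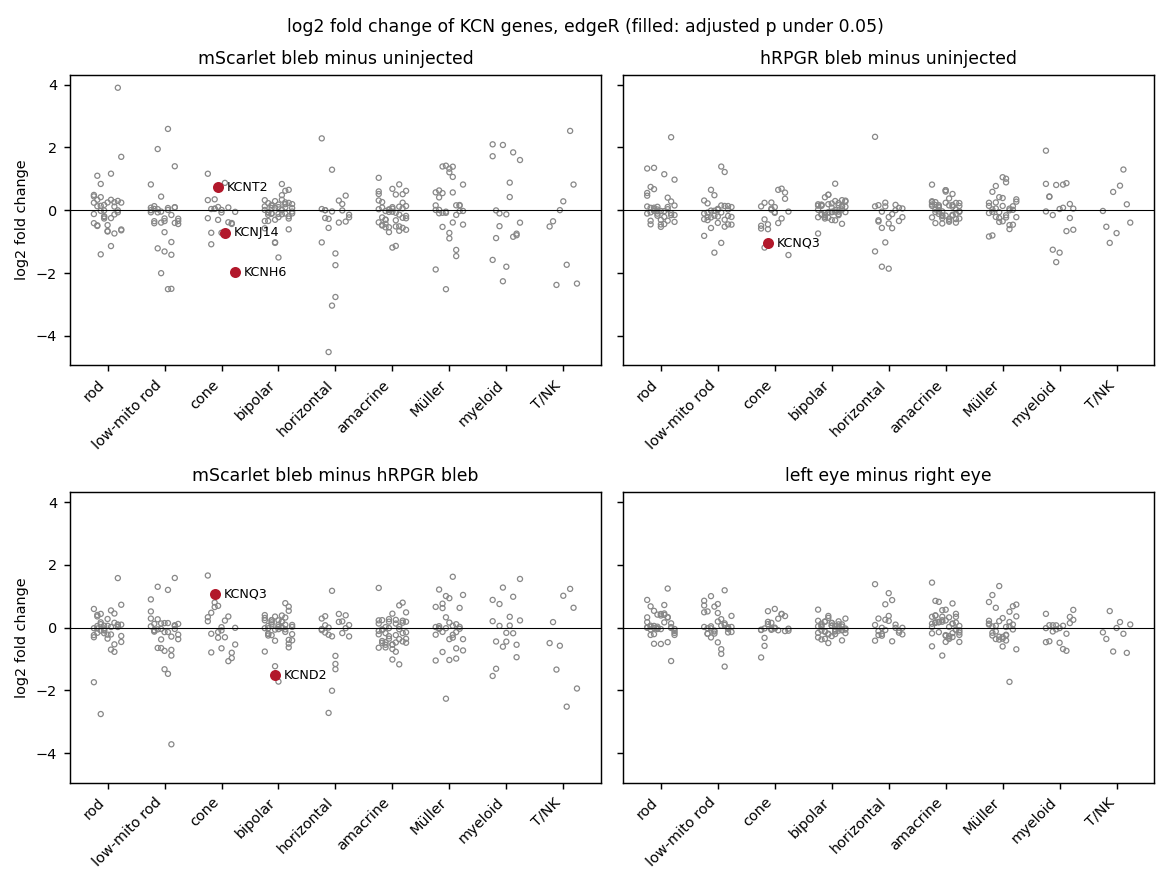
The log2 fold change (vertical axis) of the 273 member and class pairs is shown by class (horizontal axis) in 4 panels, 1 for each comparison, with filled points for pairs called by edgeR. The filled points are in cones, and in bipolar cells between the 2 blebs, and the panel of left against right eye holds none. The open point at 3.90 in rods is KCNH7.

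No member was called for the mScarlet bleb in Müller, horizontal, amacrine, myeloid or T and NK cells by edgeR. An unadjusted p under 0.05 was found for 9 of 34 members in Müller cells, 7 of 23 in horizontal cells, 2 of 46 in amacrine cells, 8 of 19 in myeloid cells and 3 of 9 in T and NK cells. Among all genes it was found for 1482 of 12359, 938 of 9484, 349 of 11124, 1343 of 10029 and 823 of 6368 in the same classes. DESeq2 called KCNIP4, KCNJ13, KCNK1 and KCNQ5 in Müller cells, KCNAB1 in horizontal cells and KCNMA1 and KCNG2 in myeloid cells. KCNJ13 in Müller cells had 17.30 and 28.80 CPM in the uninjected areas, 25.98 and 13.45 CPM in the hRPGR blebs and 2.303 and 5.978 CPM in the mScarlet blebs, a difference of -2.52 (SE 0.504, adjusted p = 0.102), and DESeq2 called it (adjusted p = 0.00139). RPE markers in Müller cells summed to 430.0 and 443.3 CPM in the uninjected areas and to 652.0 and 577.6 CPM in the mScarlet blebs. The free RNA of KCNJ13 was 0.5356 and 4.685 CPM in the uninjected areas, 1.050 and 1.018 CPM in the hRPGR blebs and 0.1487 and 0.1912 CPM in the mScarlet blebs, lowest where the Müller level was lowest, and its part in the difference was not tested. KCNK1 in Müller cells had 103.5 and 176.7 CPM in the uninjected areas and 35.00 and 67.31 CPM in the mScarlet blebs, a difference of -1.46 (adjusted p = 0.147), and KCNIP4 one of 1.39 (SE 0.234, adjusted p = 0.0660). The free RNA of KCNIP4 was 99.89 and 163.6 CPM in the uninjected areas and 214.5 and 566.8 CPM in the mScarlet blebs. It was above the Müller level of at most 87.33 CPM, and its part in the difference was not tested. Müller cells of the uninjected left area lay in another cluster (29, 99.8%) than those of the uninjected right area (16, 99.7%).

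The smaller classes held wider differences, none of which passed with edgeR. In horizontal cells KCNMB4 differed by -4.52 (adjusted p = 0.0628) on 0 to 24 UMIs a library, and KCNN2 and KCNAB1 by 1.29 and 2.29. In amacrine cells KCND2, KCNA5 and KCNQ3 differed by -1.14, 0.68 and -0.52, each with an adjusted p of 1.00. In myeloid cells KCNMA1 had 28.06 and 33.23 CPM in the uninjected areas, 61.45 and 44.29 CPM in the hRPGR blebs and 111.5 and 148.9 CPM in the mScarlet blebs, a difference of 2.08 (SE 0.314, adjusted p = 0.0919). The free RNA of KCNMA1 was 101.3 and 133.5 CPM in the uninjected areas, 106.8 and 170.6 CPM in the hRPGR blebs and 149.3 and 205.9 CPM in the mScarlet blebs. It was above the myeloid level in each of the 6 libraries, and its part in the difference was not tested. KCNG2 and KCNK10 differed there by -1.80 and 1.72. In T and NK cells, where KCNK13 differed by 2.53 (adjusted p = 0.156), the photoreceptor member KCNV2 had a difference of -2.34 and lay below the free RNA in 8 of 8 libraries.

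For the hRPGR bleb against the uninjected area the members with the lowest p beside KCNQ3 were KCNH6 in cones, KCNAB1 in horizontal cells at 2.34 (adjusted p = 0.595), KCNH7 in bipolar cells at 0.41 and in rods at 2.33, KCNIP4 in Müller cells at 0.77, and KCNG2 in myeloid cells at -1.35. Between the blebs, KCNT2 in rods differed by -2.76 (SE 0.660, adjusted p = 0.495), KCNJ13 in Müller cells by -2.27 (adjusted p = 0.367), KCNN2 in horizontal cells by 1.17 and KCNJ3 in amacrine cells by -0.64. None of these passed with edgeR. DESeq2 called KCNH6 in cones of the hRPGR bleb (adjusted p = 0.00912) and, between the blebs, KCNT2 in rods (0.0197) and KCNJ13 in Müller cells (0.0212).

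Between the left and right eyes of NHP2, with the area as a term, no member was called by edgeR or DESeq2 among 273 pairs, against 0.00800% of all pairs, and 24 pairs had an unadjusted p under 0.05, as did 2409 of the 100037. Leaving out the hRPGR right, hRPGR left, mScarlet right or mScarlet left library gave 3, 4, 2 and 1 calls. The median log2 difference was 0.02. KCNC2 in amacrine cells had the lowest p, with 468.5, 551.8 and 266.3 CPM in the hRPGR, uninjected and mScarlet areas of the right eye and 884.4, 712.5 and 599.2 CPM in those of the left, a difference of 0.82 (SE 0.209, adjusted p = 0.959). KCNH7 in T and NK cells differed by -0.76, KCNB2 in bipolar cells by 0.29 and KCNIP4 in cones, above the free RNA in 3 of 8 libraries, by 0.59. KCNMA1 in Müller cells and KCNB2 in rods, with differences of 0.73 and -0.52, were below the free RNA in 8 of 8 libraries.

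Genes that work beside the channels were read from short lists, whose calls stand against 0.792% of all pairs for the mScarlet bleb. Of the photoreceptor and synapse ion transport genes, 112 gene and class pairs were tested for the mScarlet bleb and 1 was called, CNGA1, the rod cyclic-nucleotide-gated channel, in horizontal cells (-3.15, adjusted p = 0.0303). The 8 rod markers, CNGA1 among them, summed there to 1321 and 4300 CPM in the uninjected areas of the right and left eye. In the mScarlet blebs they summed to 573.5 and 366.2 CPM, and the part of rod RNA in the CNGA1 difference was not tested. Of channel partners without a KCN name 1 of 117 was called, the scaffold DLG2, in rods (0.62, adjusted p = 0.0352).

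In cones SLC12A1, a sodium-potassium-chloride cotransporter best known from the kidney, had 0.9128 and 0.9437 CPM in the uninjected areas, 6.326 and 2.772 CPM in the hRPGR blebs and 18.63 and 21.05 CPM in the mScarlet blebs, a difference of 4.37 (SE 0.411, adjusted p = 0.000644), 1 of 51 pairs of cotransporter genes. SCN2A, a voltage-gated sodium channel, differed by 2.51 (adjusted p = 0.0410), 1 of 42 pairs. Interferon-induced markers moved with the same bleb, with 5 of 10 raised in cones (median log2 difference 3.38), 5 of 10 in rods (3.60), 6 of 11 in bipolar cells (3.09) and 2 of 11 in Müller cells (1.04). Over all classes tested 29 of 94 pairs were raised, with further calls in horizontal cells, amacrine cells and low-mito rods. For the hRPGR bleb 2 of 11 were raised in bipolar cells and none in cones. Whether the differences of the members above depend on this response was not tested.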

How the data were processed

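Cells of 8 retinal areas from 2 macaques were measured with 5′ single-cell RNA-seq. The authors counted UMIs with Cell Ranger 8.0.1 on the Mmul_10 genome with the vector transgenes added, and deposited raw counts per gene and barcode. A barcode counted as a cell from 1500 UMIs and 300 genes on, with a mitochondrial share of 20% or less, and doublets were removed at 0.8% per 1000 cells by score. Cells were clustered with scanpy 1.11.5 (3000 variable genes without the KCN genes, 40 components, 15 neighbours, Leiden resolution 2). Clusters were named from markers, and clusters with under 0.25 of their class's median mitochondrial share were set apart as low-mito, a rule chosen after the clusters were seen. Free RNA, read from barcodes with 100 to 1000 UMIs, was not subtracted from levels.

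Deposited counts were summed per library and class and fitted over the 6 NHP2 libraries by the quasi-likelihood method of edgeR 4.0.16 in R 4.3.3 (TMM scaling, genes kept by filterByExpr), with adjustment over all genes of a class. Pairs needed 50 UMIs over the libraries and classes 20 cells a library. The study's own test, DESeq2 (version 1.42.0 here), was an alternative, with other scaling, filters, cells, doublets and left-out libraries. The fits were tested on simulated data. Left-eye and right-eye libraries of different areas come from the same animal, so the eye also served as a block. The left against right differences of the areas correlated between -0.38 and 0.21 in rods and between -0.09 and -0.01 in cones. Library depth ran from 90634306 to 146519011 UMIs, and floors of 3 counts cover counting error only.

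Named in levels were up to 4 separate members per class and a list of well-known members. In comparisons every called member was named, with those of lowest p. Members, marker lists and companion lists were chosen with earlier results of these data known. Some symbols with this start, and a list of ion pump genes, are not reported here, though members among them are in the counts. Promoter windows were read from the RefSeq annotation of Mmul_10.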

Additional observations from a re-analysis of the deposited data

Results flagged for a closer look

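The effects of 2 members differed between the blebs when the difference itself was tested with edgeR. In bipolar cells KCND2 was lower in the mScarlet than in the hRPGR bleb by a log2 difference of -1.51 (SE 0.230, adjusted p = 0.0341). In cones KCNQ3 was higher in the mScarlet than in the hRPGR bleb by 1.08 (SE 0.145, adjusted p = 0.0120), with 161.8 and 164.4 CPM against 63.87 and 90.25 CPM. The blebs differ in vector, dose, grade and retinal location, which cannot be told apart. The KCND2 call was lost without the mScarlet right (adjusted p = 0.172), mScarlet left (0.435) or hRPGR left (0.0867) library and with doublets kept (0.109) by edgeR. The KCNQ3 call was lost without the mScarlet right (0.167) or left (0.182) library and with low-mito clusters counted as cones (0.0957).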

How the results depend on the processing

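Counts of called members are given for mScarlet against uninjected, hRPGR against uninjected and mScarlet against hRPGR, which were 3, 1 and 2. DESeq2 gave 13, 2 and 6, and no filter on low counts gave 47, 9 and 33, with 5 between the eyes in place of 0. With doublets kept, or with low-mito clusters counted as rods and cones, the counts were 1, 0 and 1. With the eye as a replicate block they were 2, 0 and 3, and without the area term, with no replicate block, the eye contrast stayed at 0. Leaving out single libraries gave 1 to 19, 0 to 3, 0 to 8 and, between the eyes, 0 to 4. DESeq2-style size factors and a minimum of 3000 UMIs gave 3, 1 and 2. Causes were not tested. None of the called members (KCNH6, KCNT2, KCNJ14, KCNQ3 and KCND2) reversed its direction under these alternatives. The KCNQ3 difference between the blebs was also lost with low-mito clusters included (0.0957), and its fall in cones with doublets kept and with low-mito clusters included, as was KCNT2, KCNJ14 and, with doublets kept, KCND2. Members with 50 UMIs in a class numbered 65, 65 with 3000 UMIs and 68 with low-mito clusters included. The counts without 2 libraries holding transgene were alternatives chosen after seeing the data. Those counts can only grow when libraries are left out. Without cluster 9, also chosen after seeing the data, members higher and lower in low-mito rods fell from 15 and 2 to 9 and 0. In classes with few cells (horizontal, amacrine and immune cells) low counts limit the precision of the members' values.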
